A study of Mus musculus with 4 samples.

Results

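Kit-positive Lalba-negative luminal progenitors of the mouse mammary gland were chosen from single-cell transcriptomes by a rule on measured genes, and numbered 5038 of 10889 non-cycling luminal progenitors and of 36884 cell barcodes in all. A barcode counted as a luminal progenitor when the mean z-score of 8 progenitor genes (Elf5, Kit, Aldh1a3, Csn3, Ltf, Wfdc18, Cd14 and Trf) was over 0.3. That mean also had to lie at least 0.5 above the means of 8 basal genes and of 8 hormone-sensing genes. Barcodes with 4 or more unique molecular identifiers (UMIs, counted mRNA molecules) over the mitotic genes Mki67, Top2a, Birc5, Ube2c and Cdk1 were set aside. Of the rest, those with at least 1 Kit UMI and no Lalba UMI were kept, and they were compared with the other 5851 non-cycling progenitors, which lacked a Kit UMI, held a Lalba UMI or both.

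The cells came from Zeb1 MSKO and control mice of the C57BL/B6 strain, aged 8 and 9 weeks, with 1 library for each genotype and age. They were sorted by flow cytometry and profiled with droplet-based 3′ counting. The labels do not expand MSKO, name neither the deleted part of Zeb1 nor the cells it was deleted in, and give neither the sort markers nor the number of mice behind a library. Zeb1 encodes a zinc-finger repressor of epithelial junction genes, and the study set out to compare cell heterogeneity between both genotypes. Since the labels do not name separate animals, a p-value here covers the spread between libraries only, some of which may be technical. In the comparisons between cell classes, where the library is a block, that is the spread of the within-library ratios.

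Luminal progenitors are the hormone receptor-negative luminal cells of mammary ducts, from which milk-secreting alveolar cells arise. Kit (mm10 chromosome 5, 75574916 to 75656722, plus strand) encodes the receptor tyrosine kinase for stem cell factor and is a surface marker by which these progenitors are isolated. Lalba (chromosome 15, 98480400 to 98482721, minus strand) encodes alpha-lactalbumin, the regulatory subunit of lactose synthase and a marker of cells turned towards milk secretion. The ETS factor Elf5 drives alveolar differentiation, Aldh1a3 makes retinoic acid, and Cd14 is a lipopolysaccharide co-receptor.

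Values of the 4 libraries are given throughout as Zeb1 MSKO and control at 8 weeks, then Zeb1 MSKO and control at 9 weeks, unless the ages are compared. The libraries held 80853204, 103331868, 122122443 and 87797283 UMIs in the aggregated matrix, and whether reads were first brought to equal depth is not stated. Of all barcode sequences, 682 of 36194 occurred in more than 1 library, and 11 belonged to Kit-positive Lalba-negative cells in more than 1. Depth per cell differed with the rule, since a Kit UMI is likelier in a deeper cell. The median was 8405, 9277.5, 8380.5 and 8847 UMIs in the Kit-positive Lalba-negative cells, against 7059, 7535, 6988 and 7621 UMIs in the other progenitors. Each comparison was therefore repeated with Kit and Lalba read from 2000 UMIs drawn from every cell, called the thinned gate below. It also moved cells between classes, since only 41.2%, 31.4%, 36.5% and 34.8% of the Kit-positive Lalba-negative cells kept a Kit UMI. The others counted as Kit-negative there. Of Kit-positive Lalba-positive cells, 42.1%, 42.9%, 51.4% and 58.8% kept a Lalba UMI, and the others counted as Lalba-negative. Depth and this change of classes were not told apart. Under the thinned gate the median depth of the Kit-positive Lalba-negative cells was 7606, 8207, 7828 and 7602 UMIs, against 7682, 8271, 7465.5 and 8137 UMIs in cells with neither gene.

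The cells carried the markers of their label, though Aldh1a3, Elf5 and Cd14 were similar or higher in the other progenitors. As CPM of the summed cells, that is UMIs scaled to the library's class total (plain CPM), Kit stood at 192, 154, 181 and 179 in the Kit-positive Lalba-negative cells and between 1.43 and 3.59 in the basal and hormone-sensing gates. Aldh1a3 stood at 601, 651, 400 and 386 CPM, Elf5 at 234, 219, 277 and 295 CPM and Cd14 at 693, 835, 615 and 654 CPM in the Kit-positive Lalba-negative cells. The basal gate held at most 13.9 CPM of Aldh1a3, 4.50 CPM of Elf5 and 16.8 CPM of Cd14. In the hormone-sensing gate the highest values were 14.0 CPM of Aldh1a3, 48.1 CPM of Elf5 and 38.8 CPM of Cd14. The other progenitors had 649, 775, 400 and 390 CPM of Aldh1a3, and 258, 217, 290 and 306 CPM of Elf5. Cd14 stood at 730, 963, 759 and 790 CPM there, higher in every library, and Kit at 15.5, 8.01, 39.5 and 48.3 CPM. The rule used all of these genes, so these levels are a description. A Kit UMI was also seen in 1.14% to 1.92% of basal cells and 1.82% to 4.89% of hormone-sensing cells, whose median depths were 5624 to 8052 and 14030 to 17262.5 UMIs.

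Most Kit-positive Lalba-negative cells were placed by few Kit molecules. Of the 5038 cells, 56.3% had 1 Kit UMI, 25.9% had 2 and 17.8% had 3 or more, with a highest count of 11. Just outside the rule, 239 Kit-positive progenitors had exactly 1 Lalba UMI. At the progenitor threshold, 32 of the cells lay within 0.1 above the limit, and 16 Lalba-negative barcodes with a Kit UMI lay within 0.1 below it. A cell in the comparison group without a Kit UMI may therefore still express Kit at a level not detectable at this depth.

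Most markers of other cell types were low in the Kit-positive Lalba-negative cells but differed between libraries. The summed level of 6 fibroblast markers was 150, 182, 10.3 and 3.65 CPM in these cells, against 78.4, 86.1, 24.2 and 3.85 CPM in the other progenitors, and none of the 6 was at 0. The 4 hair follicle keratinocyte markers summed to 32.3 CPM in the Zeb1 MSKO library at 8 weeks and to at most 0.174 CPM in the other libraries, where 2 or 3 of the 4 were at 0. The signal was not particular to these cells. In that library Krt71, the highest of the 4, had 19.1 CPM in them and 25.8 CPM in the other progenitors. The basal gate had 18.7 CPM and the hormone-sensing gate 8.56 CPM there. Endothelial markers summed to between 3.10 and 18.5 CPM, macrophage markers to between 7.68 and 22.1 CPM, and mast cell markers, a cell type known for Kit, to at most 0.659 CPM with 4 to 7 of their 8 genes at 0. Basal markers outside the rule summed to between 59.0 and 112 CPM. Of hormone-sensing markers outside the rule, Gata3 had 268, 218, 168 and 209 CPM, against 544, 258, 397 and 439 CPM in the hormone-sensing gate. Ptn had 126, 160, 40.6 and 115 CPM, against 6814, 6862, 779 and 6373 CPM in that gate. Tbx3 reached at most 39.7 CPM, and Wnt4, Stc2, Calca and Tnfsf11 at most 11.1 CPM.

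The first comparison asked how large the Kit-positive Lalba-negative class was within the non-cycling progenitors of each library. It made up 60.0% of them in the Zeb1 MSKO library and 41.7% in the control library at 8 weeks, and at 9 weeks 46.2% in the Zeb1 MSKO and 44.0% in the control library. Their Wilson 95% intervals, which cover counting error only, were 57.6% to 62.4% and 40.1% to 43.3% at 8 weeks, and 44.4% to 47.9% and 42.1% to 46.0% at 9 weeks. The genotypes did not overlap, since both Zeb1 MSKO shares lay above both control shares. The means were 53.1% ± 9.80 in Zeb1 MSKO and 42.9% ± 1.65 in control (SD, n = 2 each). The difference of 10.2 percentage points gave a two-sided p of 0.333 when libraries were permuted exactly, the smallest p that 2 against 2 libraries allow. It was 18.3 points at 8 weeks and 2.13 points at 9 weeks. Leaving out the Zeb1 MSKO library at 8 weeks gave 3.297 points, and leaving out that at 9 weeks 17.2 points.

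The rest of the progenitors divided differently in each library. Cells with neither gene made up 35.6% in Zeb1 MSKO and 51.7% in control at 8 weeks, and 38.4% in Zeb1 MSKO and 34.3% in control at 9 weeks. Lalba-positive cells with Kit made up 2.34% in Zeb1 MSKO and 2.54% in control at 8 weeks, and 8.91% in Zeb1 MSKO and 12.1% in control at 9 weeks. Under the thinned gate, the Kit-positive Lalba-negative class made up 25.1% in Zeb1 MSKO and 13.3% in control at 8 weeks, and 18.2% in Zeb1 MSKO and 16.8% in control at 9 weeks, with the genotypes again apart. Cycling barcodes, removed before these shares were taken, were 14 in Zeb1 MSKO and 270 in control at 8 weeks, and 71 in Zeb1 MSKO and 35 in control at 9 weeks.

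**Figure D1:**
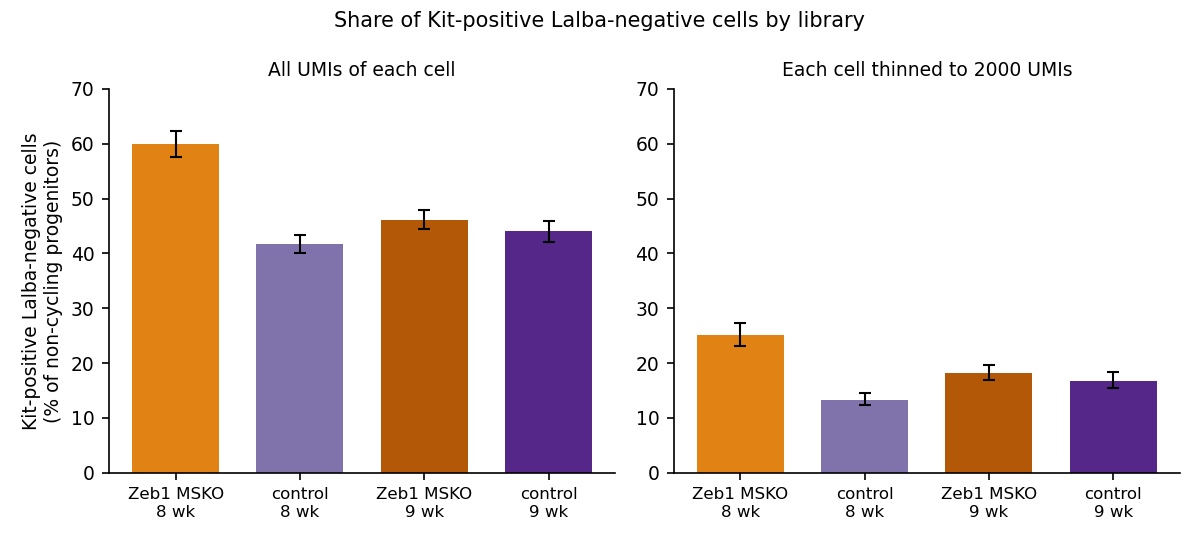
Bars give the share of Kit-positive Lalba-negative cells among non-cycling luminal progenitors (y axis, percent) in each of 4 libraries, with Wilson 95% intervals as error bars. The left panel uses all UMIs, where the Zeb1 MSKO library at 8 weeks stands at 60.0% and the others between 41.7% and 46.2%. The right panel uses 2000 UMIs drawn from each cell, where the shares are 25.1%, 13.3%, 18.2% and 16.8%.

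The second comparison asked which genes outside the rule set the Kit-positive Lalba-negative cells apart from the other progenitors. In them 7 of 11 milk protein genes were lower, along with the secreted proteins Cck, Chil1 and Cst3, the water channels Aqp1 and Aqp3, and the keratins Krt8 and Krt18. The Wnt and BMP antagonist Sostdc1, the keratin Krt23, the Hedgehog co-receptor Cdon and the metalloproteinase inhibitor Timp3 were higher. UMIs were summed per library and cell class, and edgeR's quasi-likelihood test with the library as a block called 541 of 11851 genes at an adjusted p under 0.05, a background share of 4.57%. Of these, 126 genes (1.06%) were higher and 415 (3.5%) lower. The balance between higher and lower rests on the scaling, since total UMIs without TMM gave 274 higher and 191 lower, with the median of all genes at 0.05 (log2), and DESeq2 gave 26 higher and 195 lower. From here on CPM values are TMM-scaled and fold changes are log2 values, unless stated otherwise. Their standard error (SE) was calculated back from the test's F statistic.

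Of 11 tested genes of milk proteins and secretory differentiation, 7 were lower, none was higher and 4 did not pass. The list's median log2 fold change was -0.56, against -0.0005 over all genes tested. Csn1s1, an alpha casein, had 19.4, 1.46, 54.9 and 30.6 CPM in the Kit-positive Lalba-negative cells, against 76.0, 2.12, 158 and 62.1 CPM in the other progenitors. It was lower in every library, though far less abundant in the control library at 8 weeks than in the others, and its fold change was -1.44 ± 0.10 (SE, adjusted p = 6.18e-08, edgeR). Csn2, beta casein, had 4.84, 0, 6.93 and 0.517 CPM in the Kit-positive Lalba-negative cells, against 35.1, 0, 53.0 and 9.73 CPM in the other progenitors. No Csn2 UMI was found in either class of the control library at 8 weeks, where 3 UMIs would correspond to 0.198 CPM, and the fold change of -3.00 ± 0.13 (adjusted p = 2.24e-10) comes from the other 3 libraries. In the Zeb1 MSKO library at 8 weeks, 1 barcode held 65.7% of the 181 Csn2 UMIs of the other progenitors. Csn1s2a fell by 2.51 ± 0.26, with 207 CPM in the other progenitors of the Zeb1 MSKO library at 9 weeks and at most 16.9 CPM in those of the other libraries, and 1 barcode held 30.2% of its 2746 UMIs there. Without that library its fold change was -0.83. Spp1, osteopontin, had 0.0988, 0.599, 13.0 and 0.172 CPM in the Kit-positive Lalba-negative cells, against 1.74, 4.84, 54.5 and 1.03 CPM in the other progenitors (fold change -2.19 ± 0.13). Outside the progenitors, Csn1s1 reached at most 0.863 plain CPM in the basal gate and 1.62 in the hormone-sensing gate. These casein genes lie with Csn3, which the rule used, within 266.5 kb of chromosome 5 (87666208 to 87932665).

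Milk proteins of the secretory membrane and surface showed smaller differences. Folr1, a folate receptor, had 29.3, 55.3, 65.5 and 73.6 CPM in the Kit-positive Lalba-negative cells, against 44.8, 75.6, 114 and 111 CPM in the other progenitors. It was lower in all 4 libraries, with a fold change of -0.62 ± 0.05 (adjusted p = 5.29e-07, edgeR). Btn1a1, a milk fat globule membrane protein, was lower in every library, with log2 ratios from -0.55 to -0.21. Mfge8, which coats milk fat globules, fell by 0.05 ± 0.01 and lost its call without any 1 of 3 libraries. DESeq2 called 3 of the 11 genes, and the thinned gate 5, all of them lower.

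Of 14 tested milk fat and lipid genes, 6 were lower, none higher and 8 did not pass, with a median of -0.17. Scd1, a fatty acid desaturase, had 21.2, 58.1, 66.2 and 119 CPM in the Kit-positive Lalba-negative cells, against 23.5, 83.6, 80.7 and 175 CPM in the other progenitors. Its fold change was -0.44 ± 0.05 (adjusted p = 2.11e-05, edgeR), with lower values in all 4 libraries. Xdh, which takes part in milk fat secretion, changed by -0.39 ± 0.05, and Fabp5, a fatty acid carrier, by -0.32 ± 0.06. Under the thinned gate 1 of these 14 genes was called. Of 12 tested genes of the prolactin, JAK and STAT5 pathway, which drives milk gene expression, none passed, and their median was 0.0047.

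Cck, Chil1, Cst3, Lrg1 and Lcn2, secreted proteins outside the milk lists, were also lower. The peptide hormone Cck had 26.4, 114, 120 and 119 CPM in the Kit-positive Lalba-negative cells, against 58.3, 201, 246 and 249 CPM in the other progenitors. The levels in the Zeb1 MSKO library at 8 weeks were the lowest, but the within-library log2 ratios were alike, from -1.12 to -0.81, with a fold change of -0.98 ± 0.04 (adjusted p = 1.59e-10, edgeR). Chil1, a chitinase-like protein, changed by -0.89 ± 0.05, the protease inhibitor Cst3 by -0.81 ± 0.05, and Lrg1, a leucine-rich glycoprotein, by -0.72 ± 0.06. Among 13 tested host defence and acute phase genes, 4 were lower (Chil1, Lbp, Lcn2 and Ly6d) and 2 higher (Wfdc12 and Lyz2). Lyz2, also used here as a macrophage marker, had 1.67, 17.0, 2.54 and 4.70 plain CPM in the Kit-positive Lalba-negative cells. The other progenitors had 1.79, 11.7, 0.89 and 1.23, so it was not higher in the Zeb1 MSKO library at 8 weeks. The part of macrophage RNA in this call was not tested. Lcn2, an iron-siderophore binder, had 2004, 3002, 4289 and 3766 CPM in the Kit-positive Lalba-negative cells, against 2225, 3878, 5817 and 4980 CPM in the other progenitors.

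Some genes of transport and stress were lower, though most members of these lists did not pass. Aqp1, a water channel, had 1.09, 6.45, 1.18 and 24.1 CPM in the Kit-positive Lalba-negative cells, against 11.8, 20.1, 3.99 and 45.2 CPM in the other progenitors, a fold change of -1.34 ± 0.17 (adjusted p = 4.99e-05, edgeR). Aqp3, which also carries glycerol, changed by -0.62 ± 0.08. Of 12 tested water and ion transport genes, 4 were lower and 1, the cation-chloride cotransporter Slc12a2, was higher. Of 11 tested metallothionein and NRF2 target genes, 4 were lower, led by Srxn1, an antioxidant enzyme, at -0.64 ± 0.05. Of 13 heat shock chaperones, 4 were lower, among them Hspa5 of the endoplasmic reticulum at -0.31 ± 0.03.

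Genes higher in the Kit-positive Lalba-negative cells were fewer. Sostdc1 (chromosome 12, 36314139 to 36318452, plus strand) had 124, 26.7, 49.0 and 25.2 CPM in these cells, against 81.6, 15.4, 29.4 and 11.1 CPM in the other progenitors. It was higher in every library by 0.60 to 1.12, with a fold change of 0.77 ± 0.07 (adjusted p = 1.26e-06, edgeR), although the level of the Zeb1 MSKO library at 8 weeks was well above the others in both classes. Krt23 had 60.2, 17.6, 38.3 and 33.7 CPM in these cells, against 44.2, 13.4, 28.2 and 22.1 CPM in the other progenitors (fold change 0.47 ± 0.06). Cdon changed by 0.56 ± 0.12, Timp3 by 0.43 ± 0.06 and Crip1, a LIM domain protein, by 0.40 ± 0.04. Cdon lost its call when the Zeb1 MSKO library at 9 weeks was left out.

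Genes tied to progenitor identity, but not used by the rule, went both ways. Of 20 tested, 4 were higher and 3 lower. The higher ones were Krt23, the GABA receptor subunit Gabrp, the ETS factor Ehf at 0.13 ± 0.03 and the SOX factor Sox4 at 0.12 ± 0.03. Ehf and Sox4 each lost the call without any 1 of 3 libraries. The lower ones were the integrin Itgb3, the hyaluronan receptor Cd44 at -0.30 ± 0.04 and the tetraspanin Cd9 at -0.15 ± 0.02. Cd44 had 32.1, 56.0, 60.2 and 44.8 CPM in the Kit-positive Lalba-negative cells, against 40.3, 70.2, 71.2 and 56.3 CPM in the other progenitors.

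Signalling downstream of Kit was represented by 23 tested genes, of which 2 were lower and none higher. Both are feedback inhibitors of receptor tyrosine kinases: Dusp6, a phosphatase that acts on ERK, changed by -0.19 ± 0.03 and Spry2 by -0.24 ± 0.05. Spry2 was lower in 3 of 4 libraries, lost its call without either Zeb1 MSKO at 8 weeks or control at 8 weeks, and stood at 0.12, uncalled, under the thinned gate. None of 14 Notch pathway genes passed, nor did any of 18 chemokine and NF-kB target genes.

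Of 5 luminal keratins, Krt18 and Krt8 were lower and Krt23 higher, with a list median of -0.0021. Krt18 had 3188, 3833, 2678 and 4013 CPM in the Kit-positive Lalba-negative cells, against 3653, 4576, 2958 and 4439 CPM in the other progenitors, a fold change of -0.19 ± 0.02 (adjusted p = 1.74e-06, edgeR). Its partner Krt8 changed by -0.15 ± 0.02. Of 28 epithelial junction and splicing genes, 4 were lower (Epcam, Crb3, Cldn4 and Cldn7), none was higher and 24 did not pass, with a median of -0.04 and Epcam, an adhesion molecule, at -0.21 ± 0.02. These differences were small, yet present in all 4 libraries for Krt8, Krt18, Epcam and Cldn4. Of 10 mesenchymal genes, Col3a1 and Vim were higher. With the libraries at 8 weeks alone 6 of 13 mesenchymal genes were higher, against 98 of all 12003 genes. With those at 9 weeks alone 1 of 8 was higher and 2 lower, against 134 and 341 of all 11784 genes. Under the thinned gate no mesenchymal gene passed. The fibroblast marker sum stood at 150 and 182 CPM in the Kit-positive Lalba-negative cells at 8 weeks, and the part of fibroblast RNA in these calls was not tested.

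**Figure D2:**
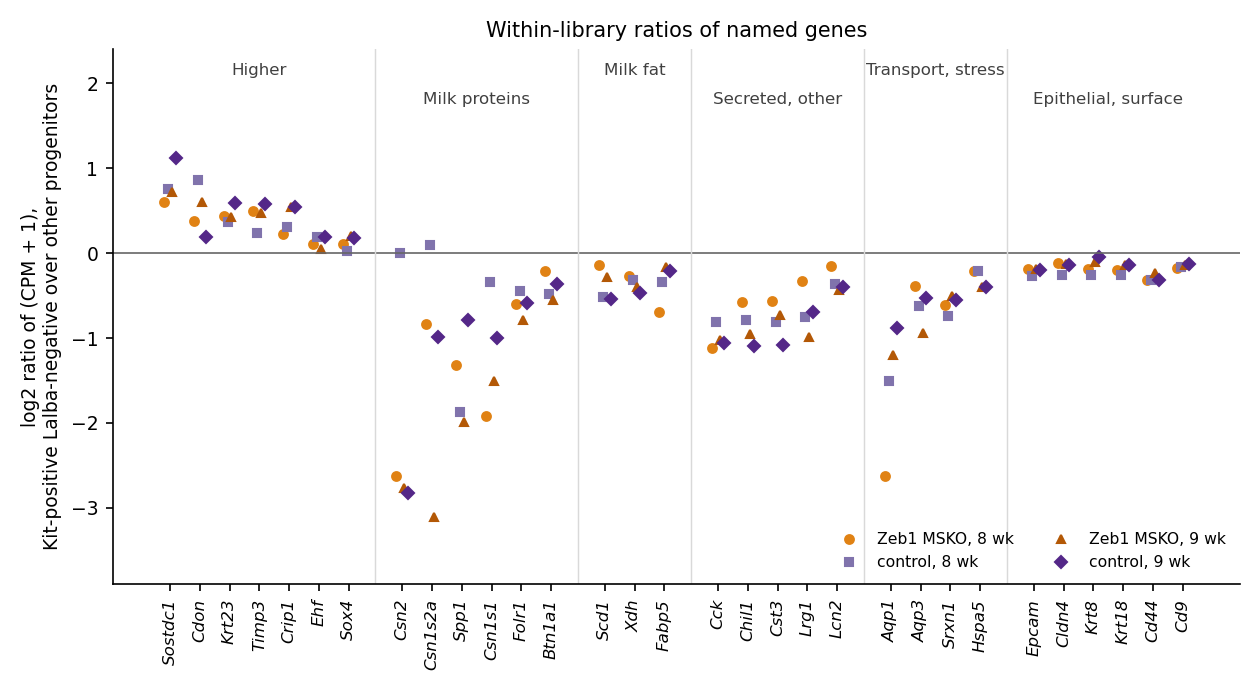
Each point is the log2 ratio of TMM-scaled CPM plus 1 (y axis) between the Kit-positive Lalba-negative cells and the other progenitors of 1 library, for 31 genes (x axis) sorted by group. Points above 0 are higher in the Kit-positive Lalba-negative cells. Sostdc1 lies between 0.60 and 1.12, Cck between -1.12 and -0.81, and the Csn2 point of the control library at 8 weeks lies at 0 because no UMI was counted there.

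Other lists held few calls. Of 19 S phase genes, 3 were higher (Hells, Mcm5 and Ung) and none lower. The rule set cells aside by mitotic genes only, so cells in S phase could remain. Of 21 immediate early genes, 2 were higher and 4 lower. Under the thinned gate 5 were higher and none lower, against 39 and 77 of all 11209 genes. Of 13 antigen presentation genes 3 were lower, of 15 basal genes outside the rule 2 were lower, of 19 interferon response genes 1 was lower, and of 8 retinoid and aldehyde dehydrogenase genes 2 were lower (Crabp2 and Aldh2). Of 27 Wnt pathway genes 1 was higher, the transcription factor Tcf7l2, and of 10 hormone-sensing genes outside the rule none passed.

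Single libraries weighed on the size of the list. Without the control library at 9 weeks, 262 genes were called. With only the libraries at 9 weeks 475 genes were called, and with only those at 8 weeks 394. Under the thinned gate 116 were called (39 higher, 77 lower), of which 89 were among the 541 in the same direction, and 503 of the 537 that could be tested there had the same sign. Among the genes described above, Btn1a1, Mfge8, Scd1, Xdh, Aqp3, Srxn1, Krt23, Cdon, Ehf, Sox4, Cd9, Dusp6, Spry2 and Cldn4 lost the call under the thinned gate. In DESeq2, Csn2, Csn1s2a, Spp1, Mfge8, Aqp1, Aqp3, Cdon, Ehf and Sox4 did not pass.

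The third comparison separated the Kit condition by setting the Kit-positive Lalba-negative cells against progenitors with neither gene. Here 424 of 11515 genes were called (3.68%), 109 higher (0.947%) and 315 lower (2.74%), and without TMM 185 higher and 122 lower. DESeq2 called 23 higher and 159 lower. Sostdc1 was higher by 0.60 ± 0.07 (adjusted p = 2.59e-06, edgeR), with 125, 26.8, 49.1 and 25.3 CPM in the Kit-positive cells, against 90.2, 16.3, 34.7 and 12.1 CPM in the Kit-negative cells. The groups overlapped across libraries, but each library's own ratio was positive. Chil1 fell by 0.69 ± 0.05 on the log2 scale, with 69.3, 74.8, 112 and 80.9 CPM in the Kit-positive cells, against 87.9, 117, 197 and 143 CPM in the Kit-negative cells.

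Csn1s1 had 19.4, 1.47, 55.0 and 30.7 CPM in the Kit-positive Lalba-negative cells, against 32.6, 1.92, 57.8 and 24.4 CPM in cells with neither gene, and did not pass (fold change -0.11 ± 0.10, adjusted p = 0.676, edgeR). Its within-library ratios went both ways, from -0.72 to 0.32. Of 10 tested milk protein genes, 3 were lower (Csn2, Folr1 and Mfge8) and 1 was higher. The higher gene was Csn1s2a, at 0.63 ± 0.16, but it lost its call without the Zeb1 MSKO library at 9 weeks. Under the thinned gate it stood at -1.77 (adjusted p = 3.48e-05, edgeR). There, cells whose Lalba UMIs were not drawn counted as Lalba-negative. Csn2 lost its call without the control library at 9 weeks. Cck changed by -0.29 ± 0.06 and Cst3 by -0.33 ± 0.05, and Cck lost its call without either control library.

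Immediate early genes split within the Kit comparison. Of 21 immediate early genes, 6 were higher (Nr4a1, Egr1, Fos, Zfp36, Ier2 and Jund) and 3 lower (Fosl1, Myc and Ier5), with a list median of 0.09. Fos, a component of AP-1, had 2838, 2084, 2622 and 1791 CPM in the Kit-positive cells, against 2524, 2014, 2242 and 1609 CPM in the Kit-negative cells, a fold change of 0.15 ± 0.02 (adjusted p = 4.35e-05, edgeR). Nr4a1, an orphan nuclear receptor, changed by 0.29 ± 0.04 and Egr1, a zinc-finger factor, by 0.18 ± 0.03. On the lower side, Fosl1, another AP-1 member, changed by -0.48 ± 0.06, Myc by -0.34 ± 0.06, the EGF receptor ligand Hbegf by -0.44 ± 0.05 and the glucose transporter Slc2a1 by -0.44 ± 0.06. The counts depended on the libraries, as did those over all genes. At 9 weeks alone 12 immediate early genes were higher and 4 lower, against 168 and 307 of all 11429 genes. At 8 weeks alone 4 were higher and 2 lower, against 81 and 208 of 12031 genes. Without TMM 12 were higher and 2 lower, against 185 and 122 of 11515 genes. Without the Zeb1 MSKO library at 8 weeks 3 were higher and 4 lower, without the control library at 8 weeks 11 higher and 3 lower, without the Zeb1 MSKO library at 9 weeks 4 higher and 2 lower, and without the control library at 9 weeks 3 higher and 2 lower.

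Of 28 epithelial junction and splicing genes, 4 were lower with Kit (Epcam, Cldn4, Crb3 and Cldn7), none was higher and 24 did not pass. Of 5 luminal keratins, Krt8 and Krt18 were lower and Krt23 was higher. The Krt23 call was lost in DESeq2, under the thinned gate and without either Zeb1 MSKO library or the control library at 9 weeks. Epcam changed by -0.22 ± 0.02, Krt8 by -0.19 ± 0.02 and Krt18 by -0.17 ± 0.02, each lower in all 4 libraries. Srxn1 changed by -0.56 ± 0.06 and Aqp3 by -0.53 ± 0.09. Of 13 antigen presentation genes, H2-K1, H2-D1 and B2m were lower. H2-K1 and H2-D1 are distinct but related genes that may share some reads, so their counts are uncertain. Jchain, the joining chain of immunoglobulins, was called higher at 2.92 ± 0.47, but 957 of its 958 UMIs in the control library at 9 weeks lay in 1 barcode and the call was lost without that library.

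Within the Kit-positive Lalba-negative cells, levels are given over the number of Kit UMIs in plain CPM, as a description. Sostdc1 was at 132, 21.1, 47.7 and 16.7 CPM in cells with 1 Kit UMI, and at 146, 45.7, 60.5 and 33.4 CPM in cells with 3 or more. Epcam was at 2980, 3691, 2080 and 2528 CPM with 1 Kit UMI, and at 2456, 3122, 1871 and 2180 CPM with 3 or more. Sostdc1 was thus higher and Epcam lower in every library at 3 or more Kit UMIs. Csn1s1 showed no one direction, with 18.4, 1.91, 66.8 and 33.2 CPM at 1 Kit UMI and 18.5, 0.44, 37.8 and 34.1 CPM at 3 or more. The median depth was 7420, 8737, 7504 and 7930 UMIs at 1 Kit UMI and 12794, 12217, 12480 and 12322 UMIs at 3 or more.

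Without the control library at 9 weeks 159 genes were called for Kit, and leaving out the Zeb1 MSKO library at 9 weeks gave 276. The thinned gate called 74, of which 50 were among the 424 in the same direction, and cells in the middle range of depths gave 198. Of the genes named for Kit, Epcam, Krt18, Srxn1, Aqp3, Egr1, Fosl1, Myc, Cck and Csn2 lost the call under the thinned gate. In DESeq2, Sostdc1, Cst3, Cck, Csn2, Csn1s2a, Srxn1, Aqp3, Fosl1 and Jchain did not pass, and without TMM Csn2 did not.

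The fourth comparison separated the Lalba condition by setting the Kit-positive Lalba-negative cells against Kit-positive Lalba-positive cells, of which there were 38, 91, 276 and 313. Caseins, other secretory genes and immediate early genes were lower in the Lalba-negative cells. The test called 280 of 10942 genes (2.56%), 83 higher (0.759%) and 197 lower (1.8%), and without TMM 131 higher and 146 lower. The Lalba-positive cells were deeper, with medians of 13005, 9321, 10417 and 11865 UMIs. Of 11 milk protein genes, 6 were lower and none higher, with a median of -1.10. Csn1s1 had 19.4, 1.46, 54.6 and 30.5 CPM in the Lalba-negative cells, against 183, 4.33, 259 and 97.4 CPM in the Lalba-positive cells. It was lower in every library, with log2 ratios from -3.17 to -1.11 and a fold change of -2.20 ± 0.15 (adjusted p = 2.68e-09, edgeR). Csn2 changed by -3.64 ± 0.24 and Csn1s2a by -3.88 ± 0.32, and 1 barcode of the Zeb1 MSKO library at 9 weeks held 41.9% of that library's 1978 Csn1s2a UMIs in Lalba-positive cells. Without that library the Csn1s2a fold change was -1.96.

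Secretory genes outside the caseins followed. Cck had 26.5, 114, 119 and 119 CPM in the Lalba-negative cells, against 108, 438, 438 and 299 CPM in the Lalba-positive cells, and every Lalba-positive value except that of the Zeb1 MSKO library at 8 weeks was above every Lalba-negative one (fold change -1.73 ± 0.09, adjusted p = 3.56e-11, edgeR). Cst3 changed by -1.62 ± 0.10, Lrg1 by -1.40 ± 0.11, Folr1 by -1.20 ± 0.10 and Btn1a1 by -1.10 ± 0.12. Btn1a1 stood at 108, 53.9, 102 and 147 CPM in the Lalba-negative cells, against 223, 181, 254 and 215 CPM in the Lalba-positive cells, with no overlap. Of 13 milk fat genes, 4 were lower, led by Xdh at -0.83 ± 0.10 and Scd1 at -0.60 ± 0.11.

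Immediate early genes were lower in the Lalba-negative cells in 13 of 21 cases and higher in none, with a list median of -0.32. Fos changed by -0.36 ± 0.04, with 2838, 2081, 2602 and 1781 CPM in the Lalba-negative cells, against 3850, 2798, 3288 and 2125 CPM in the Lalba-positive cells. The fold changes were -0.36 ± 0.04 for Jun, -0.46 ± 0.06 for Egr1, -0.28 ± 0.04 for Junb and -0.57 ± 0.06 for Btg2, an antiproliferative factor. The libraries at 9 weeks alone gave 14 lower immediate early genes, against 138 of all 11082 genes. Those at 8 weeks alone gave 9, against 82 of all 10907 genes. The thinned gate left 4, 9, 50 and 61 Lalba-positive cells with Kit. There no immediate early gene was lower and 1 was higher, against 22 and 16 of all 8767 genes.

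The genes higher in the Lalba-negative cells included markers met in the Kit comparison. Both comparisons share the sums of the Kit-positive Lalba-negative cells, so they are not independent. Crip1 had 1109, 678, 415 and 585 CPM in the Lalba-negative cells, against 210, 233, 226 and 373 CPM in the Lalba-positive cells, with no overlap (fold change 1.20 ± 0.14, adjusted p = 1.17e-05, edgeR). Sostdc1 changed by 0.98 ± 0.12, Krt23 by 1.01 ± 0.15 and Dclk1, a doublecortin-like kinase, by 0.97 ± 0.11. Rspo1, a secreted Wnt agonist, changed by 0.94 ± 0.15, and the calcium-binding S100g by 1.14 ± 0.23. Hey1, a Notch target, was lower at -0.79 ± 0.12, the 1 called gene of 12 in the Notch list. Without the control library at 9 weeks 186 genes were called, with the 8-week libraries alone 128, and 38 under the thinned gate. Sostdc1, Krt23, Xdh and Scd1 lost the call under the thinned gate, and S100g and Hey1 in DESeq2.

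**Figure D3:**
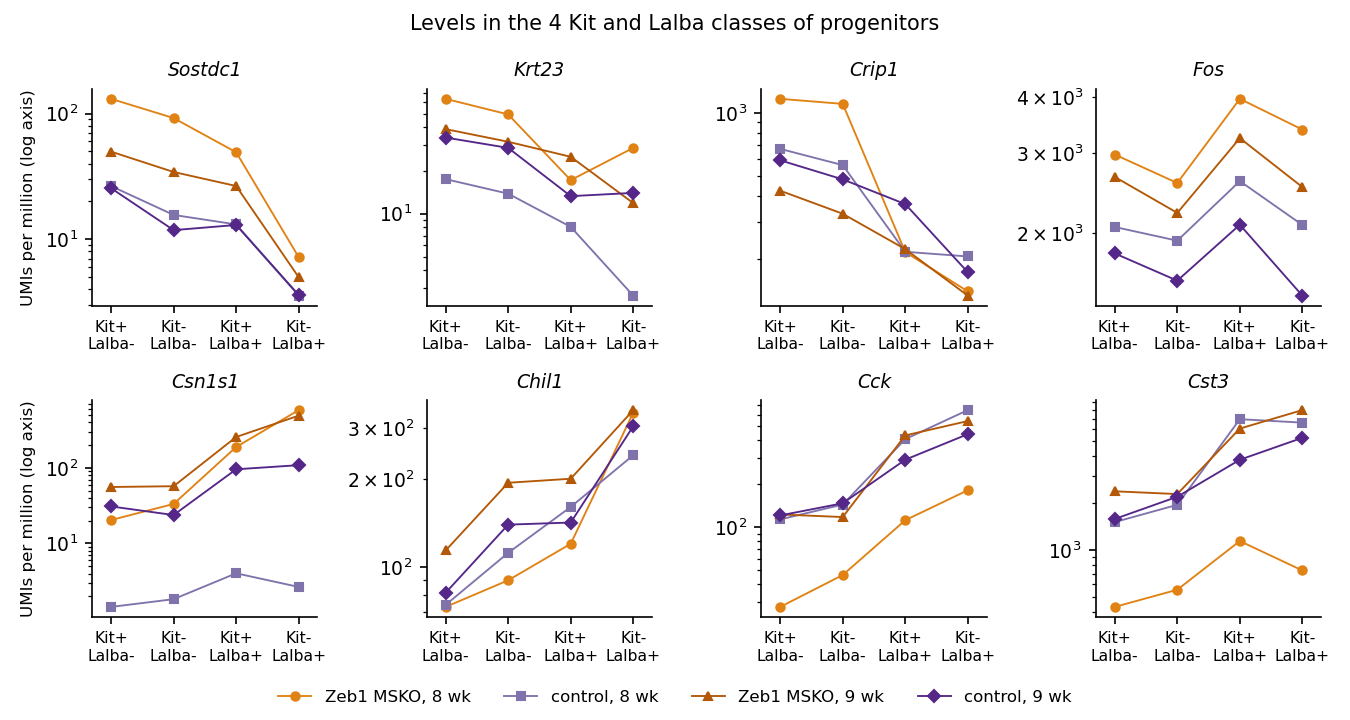
Plain CPM (y axes, log scale) of 8 genes in the 4 classes of non-cycling progenitors by Kit and Lalba (x axes), with 1 line per library. Sostdc1 runs from 131, 26.5, 49.8 and 25.5 CPM in the Kit-positive Lalba-negative cells to between 3.55 and 7.20 CPM in the Kit-negative Lalba-positive cells. The latter class held only 33, 144, 202 and 248 cells, so its low values rest on few UMIs. In the Zeb1 MSKO library at 8 weeks it held 277886 UMIs over all genes. Cck and Cst3 are higher in both Lalba-positive classes than in the Kit-positive Lalba-negative class in each library.

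The fifth comparison asked whether the Kit-positive Lalba-negative cells differed between Zeb1 MSKO and control mice. With 2 libraries on each side, the edgeR test found 0 of 12019 genes past the threshold (0%), against 161 at p under 0.05 before adjustment, while DESeq2 called 7. With the age of the library as a block, 41 genes were called, 15 higher and 26 lower, on 1 residual degree of freedom. Without the control library at 8 weeks 2 genes were called, and without that at 9 weeks 3. The genes with the lowest unadjusted p are therefore given as values that did not pass, each with an adjusted p of 1 in edgeR's test.

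Klk10, a secreted kallikrein protease, had 1.81 and 1.48 CPM in the Zeb1 MSKO libraries at 8 and 9 weeks, against 11.8 and 8.58 CPM in the control libraries (fold change -2.64 ± 0.38). Angptl4, an inhibitor of lipoprotein lipase, had 56.9 and 48.9 CPM in Zeb1 MSKO, against 20.8 and 19.6 CPM in control (1.39 ± 0.25). Srxn1 had 22.6 and 20.0 CPM in Zeb1 MSKO, against 52.2 and 49.0 CPM in control (-1.25 ± 0.25). Genes were named here only where both Zeb1 MSKO values lay on one side of both control values, so that separation was fixed by the choice. Over all 12019 genes, genotype ratios at 9 and 8 weeks correlated with r = -0.0931. Aqp1 had 1.10 and 1.20 CPM in Zeb1 MSKO, against 6.57 and 24.5 CPM in control. The metallothionein Mt2 had 164 and 97.3 CPM in Zeb1 MSKO, against 312 and 335 CPM in control. Sftpd, a collectin of host defence, had 11.5 and 11.2 CPM in Zeb1 MSKO, against 0.271 and 2.36 CPM in control. Klk8 stood at 3.51 and 4.45 CPM in Zeb1 MSKO, against 10.97 and 9.28 CPM in control, and the processed pseudogene Rps26-ps1, which may share reads with its parent gene and is uncertain, at 315 and 244 CPM in Zeb1 MSKO, against 102 and 72.9 CPM in control. With age as a block, Klk10, Angptl4, Srxn1, Aqp1, Mt2, Sftpd and Rps26-ps1 passed, and Klk10, Angptl4, Aqp1 and Rps26-ps1 passed in DESeq2.

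Zeb1 itself was near the limit of detection in these cells, with 18 and 16 UMIs in the Zeb1 MSKO libraries, against 16 and 3 UMIs in the control libraries at 8 and 9 weeks. These were 1.81 and 1.13 CPM in Zeb1 MSKO, against 1.08 and 0.263 CPM in control. Counts at the 3′ end check the labels only if the deleted part includes it, which the labels do not say. The junction genes that Zeb1 is known to repress were not called. Of 28 epithelial junction and splicing genes, none passed, 12 had a positive fold change, and the median was -0.03. Epcam had 2658 and 2012 CPM in Zeb1 MSKO, against 3658 and 2438 CPM in control, and Krt18 had 3239 and 2731 CPM in Zeb1 MSKO, against 3901 and 4080 CPM in control.

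No list held a called gene for genotype, so medians are given without a test. Over 18 interferon response genes the median was -0.57, with 2 of 18 positive, and over 21 immediate early genes 0.40, with 18 positive. Over 15 basal genes outside the rule it was 0.46 with 11 positive, over 27 Wnt pathway genes 0.33 with 22 positive, and over all 12019 genes 0.0026. Over 5 luminal keratins it was -0.42 with 2 positive, and over 13 antigen presentation genes -0.27 with 4 positive. Of all the lists, these had the medians farthest from that of all genes. The medians pool both ages and were not taken at each age. Among the single genes, Sostdc1 had 126 and 49.99 CPM in Zeb1 MSKO, against 27.2 and 25.7 CPM in control, and Rspo1 had 53.3 and 49.99 CPM in Zeb1 MSKO, against 38.1 and 20.2 CPM in control. Fos had 2875 and 2671 CPM in Zeb1 MSKO, against 2117 and 1816 CPM in control, and Dusp6 had 243 and 187 CPM in Zeb1 MSKO, against 132 and 142 CPM in control. None of these 4 genes passed without the age block, with which Sostdc1 was called.

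A sixth comparison set the Kit-positive Lalba-negative cells at 9 weeks against those at 8 weeks. Chemokines, NF-kB targets, heat shock chaperones, collagens and the transcription factor Cebpb were lower at 9 weeks, and Hey1 and Igfbp5 were higher. Age cannot be told apart from the preparation or sequencing of the libraries, since each age has 1 library per genotype. Of 12019 genes, 275 were called (2.29%), 13 higher (0.108%) and 262 lower (2.18%). Cebpb, a factor required for mammary ductal and alveolar development, had 20.7 and 33.5 CPM in the Zeb1 MSKO and control libraries at 9 weeks, against 2003 and 2101 CPM at 8 weeks. The ages were far apart, with a fold change of -6.25 ± 0.30 (adjusted p = 0.00051, edgeR). In plain CPM, the other progenitors had 20.5 and 33.0 at 9 weeks, against 2218 and 2049 at 8 weeks. The basal gate had 23.6 and 29.1 CPM at 9 weeks, against 2928 and 2050 at 8 weeks, and the hormone-sensing gate 3.11 and 2.78 CPM at 9 weeks, against 293 and 172 at 8 weeks. The gap was thus present in every class measured, and its cause was not tested.

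Of 18 chemokine and NF-kB target genes, 7 were lower at 9 weeks and none higher, with a median of -1.76. Cxcl1, a neutrophil chemokine, had 29.5 and 76.5 CPM at 9 weeks, against 701 and 1644 CPM at 8 weeks (fold change -4.47 ± 0.56, adjusted p = 0.0121, edgeR). The NF-kB inhibitor Nfkbia had 1074 and 734 CPM at 9 weeks, against 2948 and 3221 CPM at 8 weeks (-1.77 ± 0.22). Cxcl2 changed by -4.96 ± 0.88, the monocyte chemokine Ccl2 by -4.60 ± 0.59 and Tnfaip3, a brake on NF-kB, by -2.20 ± 0.25. The list's count was 4 without the Zeb1 MSKO library at 8 weeks, and Cxcl2 lost its call without either library at 8 weeks. Outside these cells, Cxcl1 was also lower at 9 weeks in the basal gate, with 105 and 87.7 plain CPM at 9 weeks, against 655 and 477 at 8 weeks.

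Heat shock chaperones were lower at 9 weeks in 5 of 13 cases and higher in none, with a median of -0.90. Hspa1a had 201 and 219 CPM at 9 weeks, against 1396 and 822 CPM at 8 weeks (fold change -2.40 ± 0.27, adjusted p = 0.0083, edgeR), and is uncertain because its near-identical copy Hspa1b may share its reads. The co-chaperone Dnaja1 changed by -1.23 ± 0.19 and Hsp90aa1 by -1.08 ± 0.18. Hsp90aa1 lost its call without either Zeb1 MSKO library or the control library at 9 weeks, and Dnaja1 lost it when the Zeb1 MSKO one at 9 weeks was left out. The chaperone count was 3 without either Zeb1 MSKO library.

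Of 12 mesenchymal genes, 7 were lower at 9 weeks, and the fibroblast marker sum moved with them, with 10.3 and 3.65 CPM at 9 weeks, against 150 and 182 CPM at 8 weeks. Col3a1 had 0.849 and 0.35 CPM at 9 weeks, against 34.0 and 53.3 CPM at 8 weeks, and Col1a1 had 0.354 and 0.263 CPM at 9 weeks, against 21.8 and 20.5 CPM at 8 weeks. The part of fibroblast RNA in these differences was not tested. The mesenchymal count was 4 when the Zeb1 MSKO library at 8 weeks was left out.

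Among genes higher at 9 weeks, Hey1 had 132 and 130 CPM at 9 weeks, against 51.5 and 56.7 CPM at 8 weeks (fold change 1.27 ± 0.18, adjusted p = 0.0171, edgeR). Igfbp5, an IGF binding protein, had 1407 and 1524 CPM at 9 weeks, against 779 and 731 CPM at 8 weeks (0.96 ± 0.17). The apoptosis inhibitor Bcl2 changed by 1.09 ± 0.22 and the clock repressor Cry2 by 1.48 ± 0.25. Igfbp5 lost its call whichever library was left out, Bcl2 without 3 of the 4, Cry2 without either library at 8 weeks and Hey1 without the Zeb1 MSKO library at 8 weeks. Of 18 interferon response genes none passed, with a median of 0.41. The progenitor factor Sox4 was lower, with 165 and 107 CPM at 9 weeks, against 692 and 345 CPM at 8 weeks, and lost its call without the Zeb1 MSKO library at 8 weeks. Spry2 was lower at -1.05 ± 0.19 and lost its call whichever library was left out. Without the Zeb1 MSKO library at 8 weeks 122 genes were called, and without the control library at 9 weeks 464. Under the thinned gate Bcl2, Cry2, Cxcl2, Spry2 and Col1a1 lost the call, and without TMM Bcl2 did.

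**Figure D4:**
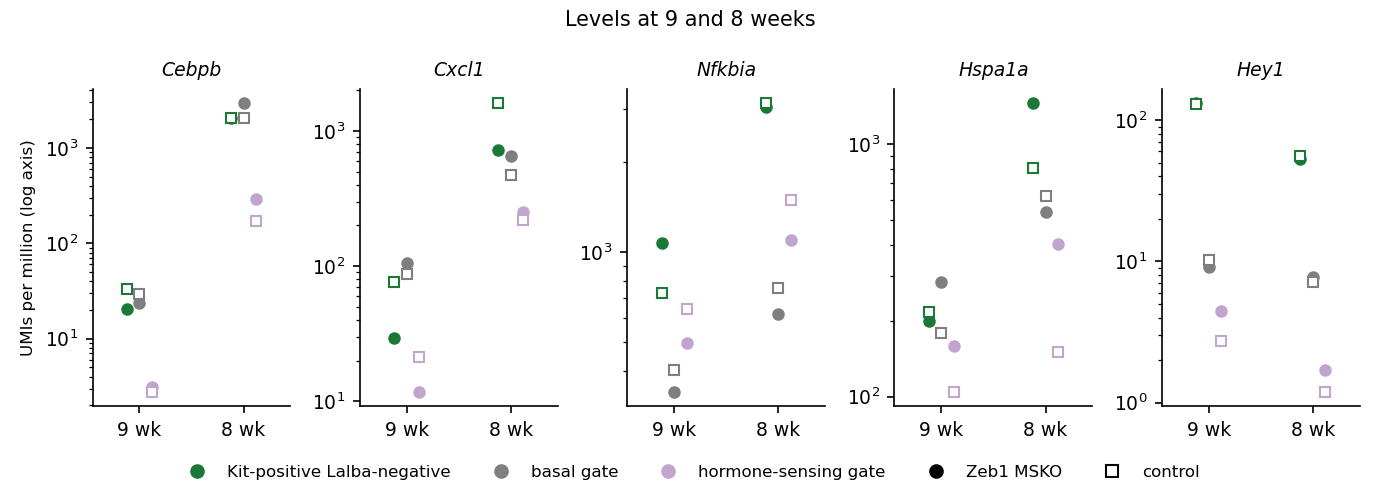
Plain CPM (y axes, log scale) of 5 genes at 9 and 8 weeks (x axes) in the Kit-positive Lalba-negative cells, the basal gate and the hormone-sensing gate, with 1 filled point per Zeb1 MSKO library and 1 open point per control library. Cebpb is lower at 9 weeks in all 3 classes. Hey1 is at 131 and 129 CPM in the Kit-positive Lalba-negative cells at 9 weeks, against 53.4 and 55.3 CPM at 8 weeks.

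The last comparison asked whether the genotype difference in the Kit-positive Lalba-negative cells departed from that in the other progenitors. In an interaction test blocked on library, 3 of 12469 genes were called (0.0241%), all with a more negative genotype difference in the Kit-positive Lalba-negative cells. That direction did not hold elsewhere, since the thinned gate called 7 more positive and 1 more negative, and leaving out the control library at 9 weeks 46 and 16. The 3 genes called in the interaction test were Nts, Acta1 and Csn1s2a, and DESeq2 called 0, with 29 at an unadjusted p under 0.05. Nts, the neurotensin precursor, had 1.28 and 0 CPM in Zeb1 MSKO and 15.0 and 0 CPM in control in the Kit-positive Lalba-negative cells at 8 and 9 weeks, and 148 of the 225 control UMIs at 8 weeks lay in 1 barcode. Its difference of -6.03 was -2.22 (adjusted p = 0.881, edgeR) without doublets and low-quality barcodes, -3.03 without the Zeb1 MSKO and -3.00 without the control library at 8 weeks. Acta1, skeletal muscle actin, had 177 UMIs in the control cells at 8 weeks, of which 142 lay in 1 barcode. Csn1s2a reflects the 2746 UMIs of the other progenitors in the Zeb1 MSKO library at 9 weeks, described with the milk proteins, and its difference was -0.22 without that library. Each call was lost without at least 1 library, and between 23 and 62 genes were called when 1 library was left out: 23 and 48 without the Zeb1 MSKO library at 8 and 9 weeks, and 29 and 62 without the control library at 8 and 9 weeks.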

How the data were processed

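Counts were the deposited UMI counts per gene and cell barcode, which the authors made with Cell Ranger 2.1.0 against mm10, per the submitters' processing notes. The authors aggregated the 4 libraries in 1 matrix. Whether this brought the libraries to equal depth, which would change every total and depth given, is not stated, nor are other filters. The matrix held 27998 genes, of which 27645 matched GENCODE vM21 by ID, the source of the coordinates. All deposited barcodes were used (lowest total 2566 UMIs). Doublets were called with scanpy's Scrublet at an expected 8% and marked 3.71% to 6.58% of barcodes. They were kept in the main result and left out in an alternative, together with barcodes over 10% mitochondrial UMIs or under 500 genes.

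Counts per barcode were scaled to 10000, log2-transformed with a pseudocount of 1 and turned to z-scores over all barcodes for the gate described above. Barcodes were read from the library they were deposited under, and libraries, not cells, were the replicates. UMIs were summed per library and class and tested with edgeR 4.0.16 in R 4.3.3 (filterByExpr, TMM, quasi-likelihood F test, Benjamini-Hochberg adjustment over all genes tested, threshold 0.05). The SE was the absolute log2 fold change divided by the square root of F, so it is no estimate of error separate from the p-value. The library was a block in the comparisons within libraries. The 30 genes the rule used were removed before testing. Code in Python 3.11.15 with scipy 1.17.1 gave exact permutation tests and Wilson intervals. Each test was tried on simulated data with known changes. DESeq2 1.42.0 was an alternative, as were other gates, thinning to 2000 UMIs, no TMM, no count filter, other blocks and leaving out each library.

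Members and gene lists were chosen with earlier results of these data known. Genes were named by a rule: called, at least 10 CPM in either arm, the same direction in every library pair or arms that did not overlap, and among the 12 with the greatest change in either direction. Where fewer than 6 were called, up to 8 with the lowest unadjusted p were named. Up to 4 members of each list with the highest CPM were added, and other list members named were chosen after their values were seen. Replicate numbers in the labels stand for age, and the labels mark no shared litter or batch. Genotype ratios at 9 and 8 weeks correlated with r = -0.0931 over 12019 genes, and 9 to 8 week ratios of Zeb1 MSKO and control with r = 0.448. Intervals and detection limits cover counting error only.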

Additional observations from a re-analysis of the deposited data

Results flagged for a closer look

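Of 85 groups of 4 library values tested for a stray sample, 8 held a library far from the other 3 by Dixon's criterion, which chance flags in about 1 of 20 groups. In the comparison of Kit-positive Lalba-negative cells with the other progenitors, the log2 ratio of Csn2 was 0 in the control library at 8 weeks, where both classes held no UMI, and between -2.82 and -2.63 elsewhere. The Cd44 ratio was -0.239 in the Zeb1 MSKO library at 9 weeks and between -0.322 and -0.319 elsewhere.

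In the Kit comparison within Lalba-negative cells, the Jchain ratio was 6.01 in the control library at 9 weeks, where 99.9% of its UMIs in the Kit-positive cells lay in 1 barcode, and at most 0.257 elsewhere. The Nr4a1 ratio was 0.188 in the control library at 8 weeks and between 0.312 and 0.315 elsewhere. In the Lalba comparison within Kit-positive cells, the Zeb1 MSKO library at 8 weeks stood apart for Sostdc1, with a ratio of 1.36 against 0.833 to 0.879 elsewhere, and for Hey1, with -1.89 against -0.707 to -0.50. The control library at 8 weeks stood apart for Cst3, with -2.29 against -1.44 to -1.31, and the Zeb1 MSKO library at 9 weeks for Junb, with -0.434 against -0.24 to -0.207.

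The genotype difference departed between the Kit-positive Lalba-negative cells and the other progenitors for 3 genes in edgeR's interaction test, with a difference of log2 fold changes of -6.03 for Nts (adjusted p = 7.85e-06), -2.38 for Acta1 (adjusted p = 0.00838) and -2.18 for Csn1s2a (adjusted p = 0.0296). For Nts 65.8% and for Acta1 80.2% of the UMIs of the control Kit-positive Lalba-negative cells at 8 weeks lay in 1 barcode. Nts had no UMI in either class at 9 weeks. Without doublets and low-quality barcodes the Nts difference was -2.22 (adjusted p = 0.881, edgeR).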

How the results depend on the processing

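Results were recomputed under other gates, scalings, tools and subsets of libraries, of which the gate on thinned cells within the middle range of depths was chosen after seeing the data. Of the counts and shares, 62 kept their value within the limits set and 45 moved, and of the values of named genes 1632 kept direction and side of the threshold, 352 kept direction and lost the call, 24 gained it and 16 changed sign. The causes were not tested.

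The count of genes called between the Kit-positive Lalba-negative cells and the other progenitors, 541, was 116 with Kit and Lalba read from thinned cells, 326 within the middle range of depths, 58 with both, and 221 with DESeq2. For Kit alone the count of 424 was 74, 198, 47 and 182 under the same settings, and for Lalba alone the count of 280 was 38, 124, 13 and 160, with 108 when members needed at least 2 Kit UMIs and 128 with the libraries at 8 weeks only. For age the count of 275 was 140, 166, 134 and 527, with 1073 without a filter on low counts and 673 with genotype as a term. For the interaction the count of 3 was 8, 5, 30 and 0, with 7 when the progenitor panel left out Kit, 21 with at least 2 Kit UMIs and 49 without a filter. For genotype the count of 0 was 7 with DESeq2 and 52 without a filter.

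Without the replicate block, that is without the library as a term, the counts for the 3 comparisons within libraries were 0 in edgeR's test, with 32, 23 and 255 genes at an unadjusted p under 0.05 for the other progenitors, Kit and Lalba. For genotype, age as a replicate block gave 41. The share difference was 10.2 points with and without that block, where the blocked value is the mean of the within-age differences. Each age held the same number of libraries of each genotype, so both values had to be equal. Their equality is therefore no check of the share difference.

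Leaving out 1 library at a time gave 262 to 461 genes against the other progenitors, 159 to 350 for Kit, 186 to 247 for Lalba, 0 to 3 for genotype, 122 to 464 for age, 23 to 62 for the interaction, and a share difference of 3.297 to 17.2 points.

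Log2 values that changed sign with thinning were Spry2 at 0.12 against the other progenitors and 0.15 for Kit, Csn1s2a at -1.77 and Jchain at -2.76 for Kit, and Acta1 at 1.21 for the interaction. With thinning and the middle range of depths they were Spry2 at 0.054, Plin2 at 0.011 and Mfge8 at 0.0055 against the other progenitors, Spry2 at 0.10 and Csn1s2a at -1.78 for Kit, and Jun at 0.36 and Egr1 at 0.061 for Lalba. Jchain was at -3.32 with at least 2 Kit UMIs. Csn1s1, not called for Kit, was at 0.075 within the middle range of depths, 0.061 at 9 weeks only, and from -0.28 to 0.044 with 1 library left out, the highest without the Zeb1 MSKO library at 8 weeks.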
